A study of Mus musculus with 2 samples.

Results

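Elane, Prtn3, Ctsg, Prss57, Mpo, Ms4a3, Fcnb, Srgn, Serpinb1a and Hdc encode proteins of the primary granule and products of early neutrophil precursors. They were picked by symbol: every probe whose RefSeq accession belongs to one of these 10 genes was taken. The array had a named probe for 22911 genes, and 13412 of them, including all 10, were well above background on both arrays. Hdc had 2 probes and the other genes 1 each, which made 11 probes, every one printed as a single spot.

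The arrays read RNA of LKS+ cells, a mouse BM fraction without lineage markers but with Kit and Sca-1, which contains hematopoietic stem and progenitor cells (HSPCs). The cells came from WT mice and were propagated for 2 days in serum-free medium that held BSA at 1%, SCF at 100 ng/ml and IL-3 and IL-6 at 10 ng/ml each. HSPC_Control then received spleen EVs (called exosomes in the labels) of normal mice and HSPC_CML spleen EVs of CML mice, both at 150 μg/ml for 24 h, after which RNA of each culture was hybridized to 1 Agilent array. CML mice carried LKS+ cells transduced with a BCR-ABL retrovirus. The methods add that the CML donors had received 5 Gy 7 days before their spleens were taken, which the labels do not mention, so that effects of leukemia and of irradiation cannot be told apart. The methods describe WT mice as males aged 6 to 8 weeks, of BALB/c or C57BL/6J strain. Which strain gave the cells on these arrays is not given in the sources used here, nor is the number of spleens behind each EV preparation. With 1 array per condition, no difference has a replicate check and no p-value is given.

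The primary, or azurophil, granule is the earliest granule of the neutrophil lineage and is filled at the promyelocyte stage. Its serine proteases are made as inactive precursors, lose an N-terminal dipeptide to cathepsin C, and are packed with myeloperoxidase onto the proteoglycan serglycin. Transcription of these genes is high in granulocyte-monocyte progenitors and promyelocytes and is shut off as the cells mature, and C/EBP factors, PU.1, RUNX1 and MYB are known regulators of several of them.

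All 10 genes had a higher signal with CML EVs than with control EVs, whereas 52.0% of all measured genes did. Elane and Fcnb were more than 2-fold higher, a size reached by 0.395% of all genes. Ms4a3, Prss57 and Prtn3 lay between 1.5- and 2-fold, so that 5 of the 10 genes passed 1.5-fold, against 1.52% of all genes. Ctsg was the sixth to be at least 25% higher (5.01% of all genes were), and Serpinb1a, Mpo, Srgn and Hdc stayed below that. No member was 1.5-fold lower, a size reached by 1.18% of all genes. The median log2 ratio of CML over control EVs was 0.51 for the 10 genes (1.43-fold) and 0.0065 for all genes.

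**Figure D1:**
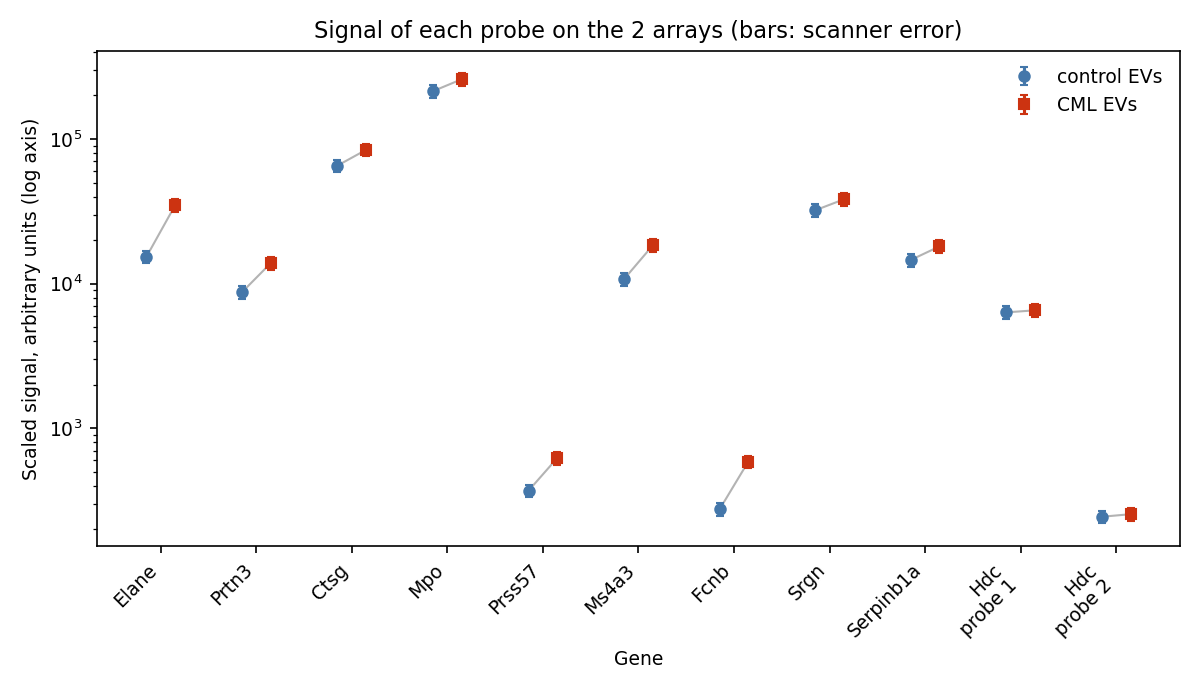
Scaled signal in arbitrary units on a log axis for each of the 11 probes, with control EVs (blue circles) and CML EVs (red squares); bars are the scanner's own error estimate of about 10% per spot, and there are no replicate arrays. The red square lies above the blue circle for every probe, and the gap is widest for Elane and Fcnb and narrowest for the 2 probes of Hdc.

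The precision of these ratios can be judged only within the arrays. Signals are arbitrary units after each array was scaled to a trimmed mean of 2500, and 54.4% of spots under control EVs and 53.3% under CML EVs were well above background. The scanner's error model gave about 10% for each member's spot, or 0.20 on the log2 scale for a ratio. By that measure 5 genes, those past 1.5-fold, differed by more than 2 errors. Since this modelled error was nearly the same for every member, the measure amounts to a fixed cut on the ratio. A second measure came from 263 probes with 8 to 10 spots per array and a mean log2 signal of 8 or more, whose log2 ratios had a median SD of 0.034 and a 95th percentile of SDs of 0.056. Both measures cover the array and the scan, not the culture or the EV preparation. No spot of the 10 genes was flagged as an outlier, and the brightest reached 33.2% of the saturation level.

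Promoter sequences of the members past 1.5-fold that the RefSeq table of GRCm38.p6 holds are shown with that of Hdc, the member whose signal differed least. Each run is the 250 bases before the annotated start, read 5′ to 3′ on the gene's strand. Capitals mark matches on either strand to RUNX TGTGGT, ETS GAGGAA, MYB AACTG or C/EBP TTNNGNAA, which were searched as fixed letters and may overlap. The stretches are chr10:79886062-79886311 (plus strand) for Elane, chr10:79879417-79879666 (plus strand) for Prtn3, chr19:11640852-11641101 (minus strand) for Ms4a3, chr2:28084879-28085128 (minus strand) for Fcnb and chr2:126618679-126618928 (minus strand) for Hdc.
Elane: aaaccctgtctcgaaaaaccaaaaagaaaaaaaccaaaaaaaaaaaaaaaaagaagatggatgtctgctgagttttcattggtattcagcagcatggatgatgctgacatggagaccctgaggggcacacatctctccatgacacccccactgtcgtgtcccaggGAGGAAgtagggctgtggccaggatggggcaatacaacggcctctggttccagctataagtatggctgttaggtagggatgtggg
Prtn3: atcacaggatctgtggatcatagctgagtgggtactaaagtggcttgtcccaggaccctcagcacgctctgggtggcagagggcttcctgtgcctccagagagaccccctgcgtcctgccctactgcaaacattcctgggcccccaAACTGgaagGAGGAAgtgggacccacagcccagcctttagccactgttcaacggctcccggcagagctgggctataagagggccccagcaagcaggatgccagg
Ms4a3: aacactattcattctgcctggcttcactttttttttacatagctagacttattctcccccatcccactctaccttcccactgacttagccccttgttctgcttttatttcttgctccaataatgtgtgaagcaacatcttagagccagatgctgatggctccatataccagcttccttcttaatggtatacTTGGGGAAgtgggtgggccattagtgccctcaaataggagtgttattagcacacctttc
Fcnb: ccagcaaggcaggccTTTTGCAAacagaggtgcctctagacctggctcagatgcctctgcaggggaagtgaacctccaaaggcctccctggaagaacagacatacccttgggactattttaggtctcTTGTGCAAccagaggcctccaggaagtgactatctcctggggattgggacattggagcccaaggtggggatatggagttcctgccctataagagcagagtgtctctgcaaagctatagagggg
Hdc: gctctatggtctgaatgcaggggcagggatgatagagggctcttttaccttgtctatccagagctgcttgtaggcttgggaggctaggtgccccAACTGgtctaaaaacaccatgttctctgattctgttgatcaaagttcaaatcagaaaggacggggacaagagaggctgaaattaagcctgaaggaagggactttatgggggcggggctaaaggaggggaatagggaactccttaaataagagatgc

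Elane, which encodes neutrophil elastase, stood highest of the serine proteases. Its signal was 15311 under control EVs and 34735 under CML EVs, a 2.27-fold difference (log2 ratio 1.18, scanner error 0.20). The ratio ranked 33 among 13412 genes and 1 among the 6706 genes with a mean signal at or above the median. Of 669 genes whose mean log2 signal lay within 1 of its own, 0 had a larger ratio.

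Prtn3 encodes proteinase 3, the autoantigen of granulomatosis with polyangiitis. It measured 8716 under control EVs and 13829 under CML EVs, which is 1.59-fold (log2 ratio 0.67). Among 1360 genes of like signal, 9 had a larger ratio. Prss57 encodes neutrophil serine protease 4, a granule protease with arginine specificity, and its signal was 371 under control EVs and 623 under CML EVs (1.68-fold, log2 ratio 0.75). Of 3354 genes of like signal, 19 lay higher.

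Ctsg, the gene of the chymotrypsin-like cathepsin G, had signals of 65450 and 84128 with control and CML EVs. This 1.29-fold difference (log2 ratio 0.36) was 1.78 scanner errors. Of 218 genes of like signal, 2 had a larger ratio. The 4 serine proteases thus spanned log2 ratios of 0.36 to 1.18 and none was lower with CML EVs.

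Mpo encodes myeloperoxidase, the heme enzyme that makes hypochlorous acid. Its signal was 213990 under control EVs and 258638 under CML EVs, 1.21-fold higher (log2 ratio 0.27) and 1.34 scanner errors. Of 63 genes of like signal, 0 had a larger ratio. The absolute gain, 44648 units, was the largest among the members, and the spot, the brightest of the group, was not flagged as saturated.

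Ms4a3 encodes a tetraspanning membrane protein of granulocyte-monocyte progenitors. It measured 10757 under control EVs and 18397 under CML EVs, a 1.71-fold difference (log2 ratio 0.77), and 5 of 1103 genes of like signal lay higher. Fcnb, which encodes the myeloid ficolin B, a lectin that can start the complement cascade, measured 276 under control EVs and 589 under CML EVs. The 2.14-fold difference (log2 ratio 1.09) ranked 40 among all genes, and 1 of 3234 genes of like signal had a larger ratio.

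Srgn, the core protein of serglycin that holds granule proteases, had signals of 32130 and 38263, a 1.19-fold difference (log2 ratio 0.25). Serpinb1a, a cytosolic inhibitor of elastase, proteinase 3 and cathepsin G, measured 14573 under control EVs and 18082 under CML EVs (1.24-fold, log2 ratio 0.31). Both differences were below 2 scanner errors. Of the genes of like signal, 15 of 426 had a larger ratio than Srgn and 34 of 963 a larger one than Serpinb1a. The mouse has close copies of Serpinb1a, and whether its probe also binds their RNA was not tested.

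Hdc encodes histidine decarboxylase, the enzyme of histamine synthesis in basophils, mast cells and some myeloid precursors. Its brighter probe gave 6330 under control EVs and 6538 under CML EVs, and its dimmer probe 245 and 255. The log2 ratios, 0.05 and 0.06, were alike and lay within the middle of all genes (25th to 75th percentile, -0.09 to 0.09). Of 2014 genes with a signal like that of the brighter probe, 888 had a larger ratio. Hdc was thus the only member between the 25th and 75th percentiles of all genes.

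**Figure D2:**
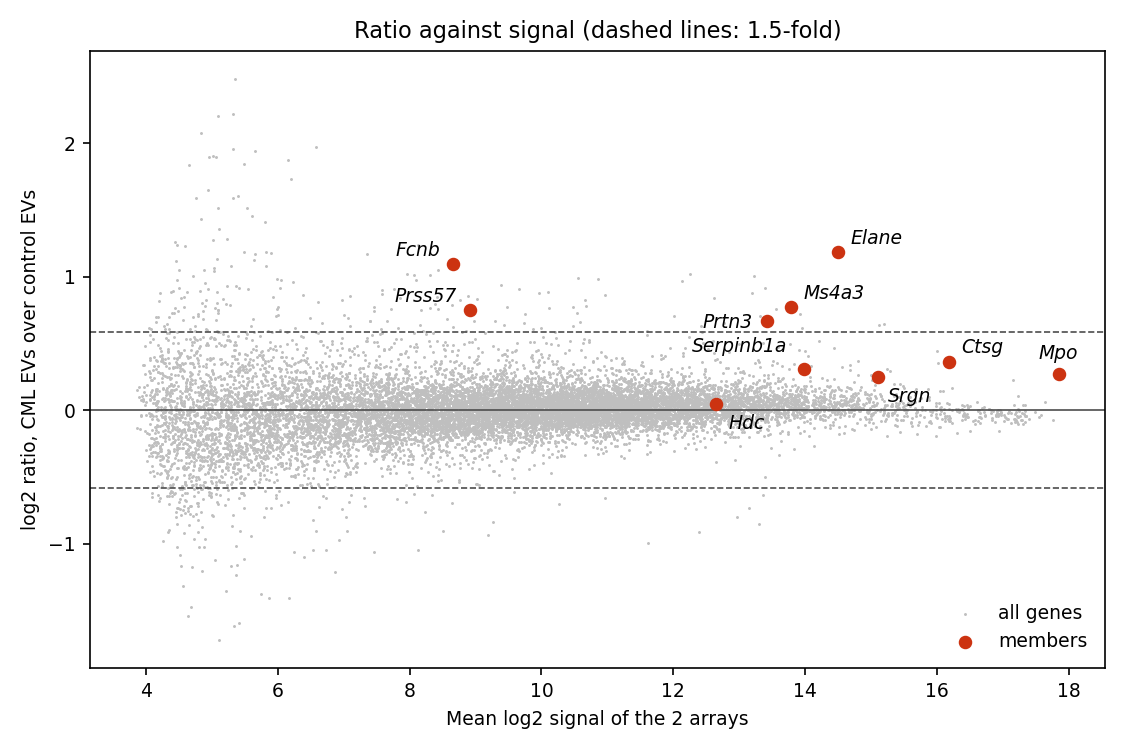
log2 ratio (CML over control EVs) against the mean log2 signal of the 2 arrays for 13412 genes (grey points) and the 10 members (red points with names); dashed lines mark 1.5-fold in either direction. Elane, Fcnb, Ms4a3, Prss57 and Prtn3 lie above the upper dashed line, Hdc lies inside the grey cloud, and the cloud widens at low signal.

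In descending order of the ratio, the genes were Elane, Fcnb, Ms4a3, Prss57, Prtn3, Ctsg, Serpinb1a, Mpo, Srgn and Hdc. Most neighbours in this order could not be separated. Of the 9 steps between neighbours, 2 exceeded the scanner error of a difference (0.29), those from Fcnb to Ms4a3 (0.32) and from Prtn3 to Ctsg (0.30), and 0 exceeded 2 such errors. Against the spread of repeated spots, 3 steps were larger than 2 SDs of a difference (SD 0.048), these 2 and the one from Srgn to Hdc (0.21). The 99th percentile of all genes was 0.73, which 4 members passed, all but Prtn3 of those past 1.5-fold.

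The direction did not hang on the processing of the spots. Before any correction, the median pixel signal was higher with CML EVs for 10 of the 11 probes, the exception being the dimmer Hdc probe, against a local background of 28 to 37 units. Spots printed within 10 rows and columns of a member's spot had median log2 ratios of -0.05 to 0.02. Across 14 other ways of processing, the log2 ratio of Elane ranged from 1.15 to 1.252, that of Fcnb from 0.97 to 1.16, that of Ms4a3 from 0.73 to 0.84, that of Prss57 from 0.67 to 0.82 and that of Prtn3 from 0.63 to 0.74. All 5 stayed above 1.5-fold throughout. Mpo ranged from 0.17 to 0.34 and Hdc from 0.01 to 0.12, and no member fell below 0. The deposited values, the filters and, for genes with a single probe, the choice of probe could not alter these ratios. The balance of all genes moved with the processing. Of the genes past 1.5-fold, 56.4% were higher with CML EVs as reported here. The share was 70.8% when arrays were scaled to their median, 66.8% after quantile normalization and 77.6% after normexp background correction. It was 44.9% when the probe with the lowest ratio stood for each gene, 47.5% when 1 array above background was enough and 48.5% when dim probes were not filtered.

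**Figure D3:**
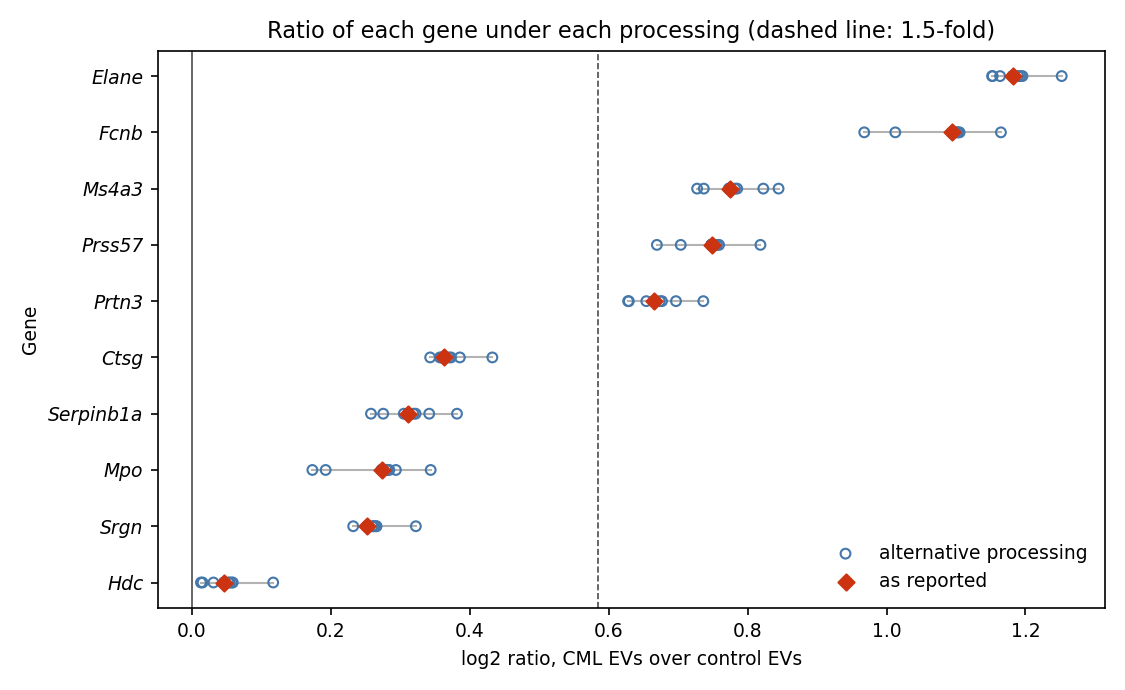
log2 ratio (CML over control EVs) for each gene as reported (red diamonds) and under alternative scaling, background correction, filtering and choice of probe (open blue circles, joined by a grey line); the dashed line marks 1.5-fold. Every circle lies right of 0, and those of Elane, Fcnb, Ms4a3, Prss57 and Prtn3 lie right of the dashed line.

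The promoter table held 9 windows for 8 of the members, with 2 for Srgn and none for Prss57 or Serpinb1a. ETS letters occurred upstream of the start in 4 windows, those of Elane, Prtn3, Ctsg and Mpo, and in 23.3% of all 32851 promoters. In Elane the match lay 85 to 80 bases and in Prtn3 95 to 90 bases before the start, both on the gene's strand. MYB letters occurred in 6 windows (39.1% of all promoters), and RUNX letters in 2, Ctsg and the second window of Srgn (14.05%). C/EBP letters occurred in 3 windows (36.8%). Fcnb had 2 such matches, TTTTGCAA and TTGTGCAA, Ms4a3 had TTGGGGAA, and the second Srgn window had 5. Elane and Prtn3 had none of these C/EBP letters, and Hdc had only a MYB match. Among the members past 1.5-fold no motif was common to all printed stretches. In the part of the windows after the start, which is not printed, Ms4a3 had an ETS and a further C/EBP match and Fcnb a MYB match.

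Some of the genes lie close together, so the ratios of their neighbours on the chromosome were read from the same arrays, using gene order only. Elane and Prtn3 are adjacent on chromosome 10, and Prss57 lies 5 protein-coding genes from Prtn3. Cfd, which encodes complement factor D and follows Elane directly, measured 29.97 and 57.2, a 1.91-fold difference at a dim signal. Between Prss57 and Prtn3, Palm, Ptbp1 and Plppr3 had log2 ratios of 0.19, 0.13 and 0.17, and Med16, on the far side of Cfd, had 0.06. Within 5 genes of Mpo, Epx was 1.72-fold higher, Lpo had a log2 ratio of 0.13 and Tspoap1 one of 0.55. Around Ctsg 8 of the 10 neighbours, mast cell protease and granzyme genes, were well above background on neither array, while Mcpt8 had a log2 ratio of 0.08 and Mcpt4 of -0.21. The neighbours of Ms4a3 that were measured in its own family, Ms4a2, Ms4a6d and Ms4a6b, stayed between 0.01 and 0.13. Over all 10 members, 52 neighbours that are not members were measured, with a median of 0.06. Of these, 2 were 1.5-fold higher, Cfd and Epx, and 1 was 1.5-fold lower, Cblif, at a dim 39.1 and 17.3.

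**Figure D4:**
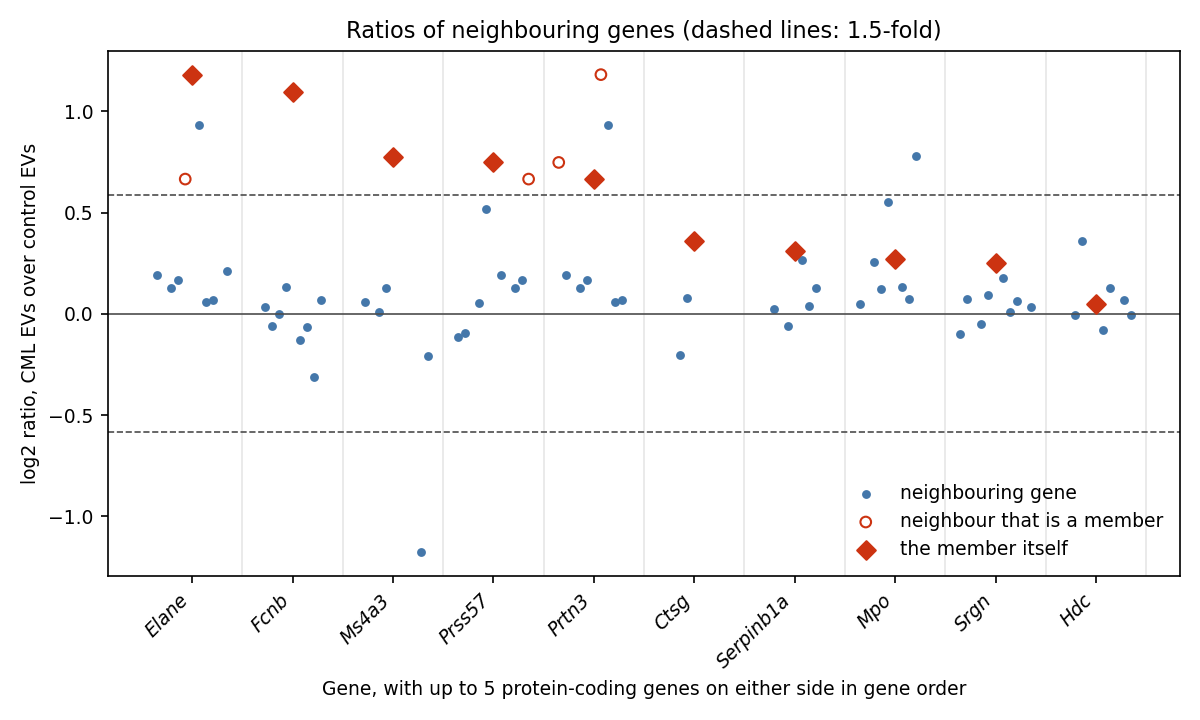
log2 ratio (CML over control EVs) for each member (red diamonds) and for up to 5 protein-coding genes on either side in gene order (blue points; open red circles where the neighbour is itself a member); dashed lines mark 1.5-fold. Apart from Cfd beside Elane and Prtn3, Epx beside Mpo and Cblif beside Ms4a3, no neighbour outside the group lies beyond the dashed lines.

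Other genes of the primary granule and of early neutrophil precursors were listed for comparison. Of 28 genes, 26 were measured on both arrays, 22 were higher and 4 lower with CML EVs (24 and 2 after scaling to the median), and 8 were at least 1.5-fold higher and 0 as much lower. Their median log2 ratio was 0.32. Chil3, a chitinase-like protein of myeloid cells, measured 3443 and 6988 (2.03-fold). Clec12a, an inhibitory lectin receptor, was 1.79-fold higher, and Alas1, which starts heme synthesis, 1.65-fold higher. Anxa3 and Igsf6 were each 1.63-fold higher, Ly6c2 1.56-fold and Nkg7, a granule membrane protein, 1.55-fold higher, and Cfd is described above. The 4 lower genes were the lysozyme genes Lyz1 (log2 ratio -0.34) and Lyz2 (-0.03), the G-CSF receptor gene Csf3r (-0.15) and the granule membrane gene Cd63 (-0.04). Early granule genes thus did not all show a higher signal.

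Genes that process or inhibit the granule proteases had a lower median log2 ratio than the members. Ctsc, whose cathepsin C activates Elane, Prtn3, Ctsg and Prss57, measured 6210 and 6499 (1.05-fold), and Cst7, which encodes an inhibitor of cathepsin C, 7207 and 8208 (1.14-fold). Of 15 genes measured, 12 were higher, and the median was 0.13. The cystatins Stfa1 (1.70-fold) and Stfa2 (1.51-fold) were past 1.5-fold, and Stfa3 and Wfdc21 had log2 ratios of 0.52 and 0.50; stefin A genes are near-identical copies, so that their probes may not tell them apart. Of the copies of Serpinb1a, Serpinb1c had a log2 ratio of 0.27 and Serpinb1b was well above background on neither array.

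The genes that build the sugar chains of serglycin were split in direction. Of 19 measured, 10 were higher and 9 lower, a split near that of all genes, of which 52.0% were higher. None was 1.5-fold apart, and the median was 0.02. It was 0.085 after scaling arrays to their median, with 12 higher and 7 lower, and turned negative under some other processing alternatives. The sulfotransferase genes Chst12, Chst15 and Chst11 had log2 ratios of 0.34, 0.30 and 0.30, and Ext1 had -0.21. The 2 probes of Chst11 spanned 0.30 to 0.62. Around Hdc, 5 genes of histamine handling were measured and 0 were past 1.5-fold. The vesicular transporter gene Slc18a2 had 1287 and 1023 (log2 ratio -0.33), Slc22a3 and Hrh4 had -0.19 and -0.18, and Hnmt, which inactivates histamine, had 0.11. The 2 probes of Hnmt spanned 0.11 to 0.41.

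Relatives of the members from the same gene families were mostly near 0 or not detected. For Mpo, Epx (1252 and 2150) was the only heme peroxidase gene past 1.5-fold higher, Ptgs2 was 1.57-fold lower at a dim 39.9 and 25.4 (within 1.5-fold after median scaling or normexp), and Ptgs1 had a log2 ratio of 0.08. For Fcnb, the other ficolin gene Fcna was well above background on neither array. Masp2, listed for the lectin pathway and not as a ficolin, had -0.25, and its probes above background spanned -0.25 to 0.006. For Ms4a3, 7 relatives were measured, of which Ms4a4b, Ms4a7 and Ms4a6c had 0.37, 0.24 and 0.08 and 0 passed 1.5-fold. For Ctsg, 9 granzyme and mast cell protease genes were measured, with a median of -0.08; Gzmc and Prss34 had 0.38 and 0.30 and Cma1 -0.17.

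A list of transcription factors of promyelocyte genes was measured in full, 22 of 22. Whether each of them acts on the members was not tested. Cebpe, the C/EBP factor of later granule genes, was 6778 under control EVs and 13580 under CML EVs (2.003-fold), and Gfi1, a repressor needed for neutrophil development, was 3219 and 6311 (1.96-fold). These 2 were the ones past 1.5-fold. Cebpa, Spi1, which encodes PU.1, and Irf8 had log2 ratios of 0.20, 0.30 and 0.13, Cebpd had 0.47, and Egr1 had -0.39. Myb and Runx1 had -0.07 and -0.08, and the 3 probes of each gene spanned -0.10 to 0.10 for Myb and -0.16 to 0.28 for Runx1. The median of the list was 0.06.

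RNA of several stages and lineages was present, and in such bulk samples fewer cells of a type and less RNA per cell cannot be told apart. Markers of HSPCs were present, Kit with 1646 and 1529 and Ly6a, which encodes Sca-1, with 1548 and 1985. Of 19 HSPC markers measured, 17 were lower (14 after scaling to the median) and 2 higher with CML EVs, with a median of -0.14. The 2 higher ones were Ly6a and Prom1 (18.4 and 37.0, 2.01-fold at a dim signal), while Robo4 and Slamf1 had -0.57 and -0.37. Most late neutrophil markers moved with the members. Of 24 with a probe 22 were measured, 16 higher and 6 lower with CML EVs (17 and 5 after scaling to the median). Their median was 0.42 and their summed signal 273545 under control EVs and 356665 under CML EVs. Of the 22, 8 were at least 1.5-fold higher, against 1.52% of all genes. These 8 were Pglyrp1 (1.97-fold), Ltf (1.88-fold), Camp and Ngp (1.84-fold each), Itgb2l (1.81-fold), Ceacam1 (1.80-fold), Cd177 (1.78-fold) and Lcn2 (1.69-fold), while Mmp9 and Mmp25 were well above background on neither array. The lower ones were Il1b (-0.30), Itgam (-0.20), Padi4 (-0.14), Mmp8 and Cxcr2 (-0.09 each) and Fpr1 (-0.004). The 2 probes of Itgam spanned -0.20 to 0.43.

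Most eosinophil markers also moved with the members. Of 11, 8 were measured, 7 were higher, and Epx, Prg3 (1.59-fold) and Ear6 (1.58-fold) were past 1.5-fold, with a median of 0.51 and a summed signal of 8914 and 13205. Prg2 had a log2 ratio of 0.58, and Il5ra, Ccr3 and Alox15 were well above background on neither array. The part of late neutrophil and eosinophil RNA in the ratios of the 10 genes was not tested.

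Markers of other lineages differed in direction from list to list. Of 17 mast cell and basophil markers, the cells best known for Hdc, 7 were higher and 10 lower with a median of -0.08 and a summed signal of 59669 and 62232. Il4 and Slc18a2 had -0.33 each, Prss34 0.30 and Il1rl1 -0.27. The 3 probes of Il1rl1 spanned -0.42 to 0.18. Of 19 monocyte and macrophage markers 15 were higher, against 52.0% of all genes, with 0 past 1.5-fold and a median of 0.05. Mrc1, F13a1, Ccr2 and C1qb had -0.34, 0.27, -0.22 and -0.19. All 15 megakaryocyte markers were lower, or 14 after scaling to the median (median -0.24, summed signal 94325 and 84565), Gp1bb, Gp5 and Selp by -0.44, -0.43 and -0.40 on the log2 scale. Erythroid markers had a median of -0.03, or 0.042 after scaling to the median, with Hbb-bt 1.62-fold lower and Car1, Hba-a1 and Klf1 at 0.26, 0.23 and 0.23. Lymphoid markers were sparse: 3 of 12 B cell markers were measured (Cr2 -0.42, Vpreb1 -0.19 and Cd79b 0.03), and 7 of 14 of T and NK cells (median -0.10, Cd3d 0.32, Thy1 0.29, Cd5 -0.24 and Cd4 -0.17).

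**Figure D5:**
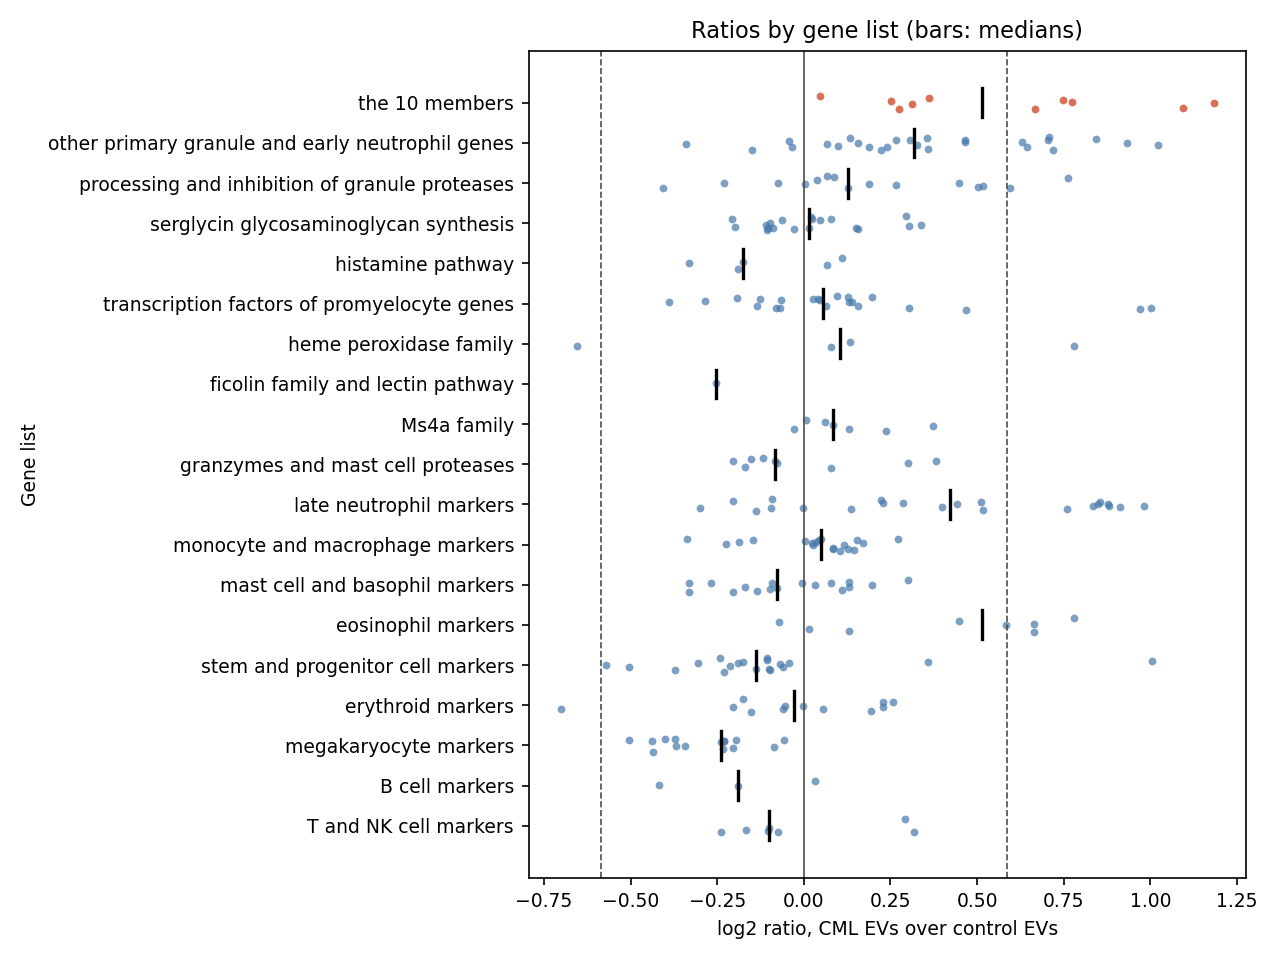
log2 ratio (CML over control EVs) for each measured gene (points) of the 10 members (red) and of the other gene lists (blue), with the median of each list as a black bar and dashed lines at 1.5-fold; points are spread vertically at random for sight only, and some genes stand in several lists. The 10 members and the eosinophil, late neutrophil and other primary granule lists have medians of 0.51, 0.51, 0.42 and 0.32, while the megakaryocyte points all lie left of 0 under the scaling shown and all but 1 when arrays are scaled to their median.

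Over 2 arrays, the likeness of another gene to the group can only be the distance of its log2 ratio from the members' median. Among genes with a mean signal at or above the median of all genes, the nearest were Gpr160 (0.51), Plin3 (0.52), Rnase2a (0.52), Pfkfb4 (0.51) and Ifitm6 (0.51). They lay 0.0016 to 0.0035 from the median, but 25 such genes lay within 0.05 of it, none of them a member, so that this closeness does not set them apart.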

How the data were processed

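Agilent's software (Feature Extraction 12.0.3.1 in the submitters' processing notes) gave the intensity of each spot after background subtraction; the authors deposited these scanner files and a table of the intensity times 1 factor per array. That table equals the present scaling to a mean of 2500, over non-control spots without the upper and lower 2%, with a largest relative deviation of 5.0e-10. Outlier spots were left out (95 and 88), log2 was taken, and a gene was read from its probe with the highest CML EV signal. RefSeq accessions named 32994 of 56604 probes, which need not cover every probe of a member. The files refer to build mm9, so that only promoters carry coordinates (GRCm38.p6). The number of arrays limits the precision. The fold step was tested on simulated ratios put into a copy of the control array, which checks the computation and not the precision. The members, lists and motifs were chosen with earlier results of these data known. Named were all members, of each list up to 4 genes with the largest ratio, genes past 1.5-fold and fixed factors; lower early granule genes, neighbours, further motif positions and a size of 25% were added after values were seen, and 1 gene of the rule is not reported here. Alternatives covered scaling, background correction (limma 3.58.1), probe choice, filters and a loess trend. Python 3.11.15, pandas 2.3.3 and R 4.3.3 were used.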

Additional observations from a re-analysis of the deposited data

How the results depend on the processing

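Of 43 alternative values for the median and the counts of members past 1.5- and 2-fold, 41 moved by less than the spread of repeated spots or, for counts, by less than 1.5 times. Many of these 41 could not move. The deposited values, the filters, kept outlier spots and, for genes with a single probe, the choice of probe could not alter the members' ratios. The tally is therefore no measure of stability. Scaling the arrays to their median gave a members' median of 0.58, and the median of all genes then rose from 0.0065 to 0.077. After normexp, 1 member was at least 2-fold higher, since Fcnb then had a log2 ratio of 0.97. The use of uncorrected spot medians was chosen after seeing the data. The erythroid median became 0.042 after median scaling, and that of serglycin sugar chain genes became -0.027 after normexp, -0.029 with the mean of all probes and -0.0012 after the loess trend was removed; the cause was not tested. The number of all genes 1.5-fold higher and lower, 204 and 158, was 83 and 24 after normexp, 104 and 36 with uncorrected spot medians, 467 and 516 when 1 array above background was enough, and 1332 and 1415 with no filter. Likewise 53 genes 2-fold higher became 4, 13, 266 and 746. Naming probes by a gene name column was not run, since the scanner files used here hold none. No paired analysis was possible because there is a single array for either kind of EV. Dim genes such as Cfd and Prom1 are limited by background.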
